A study of Mus musculus with 6 samples.

Results

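Ly6a, Ly6c1, Ly6d, Ly6e and Ly6g, genes of the mouse Ly6 family, were followed in single cells of regenerating gut organoids. They were chosen by symbol and are 5 of the 55335 genes counted in every library, and each symbol was found. The measurement was a count of unique molecular identifiers (UMIs, tags that mark captured transcript molecules) in droplet 3-prime RNA libraries. Organoids are cultures of intestinal epithelium that grow from dissociated cells.

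All 6 libraries came from wild-type C57BL/6 mice aged 8 weeks. Organoids were raised from 2 mice in duplicate, and the labels do not say which mouse a library came from. At day 4, 96 hours after the first treatment, 1 library each was made from organoids given an antagonist of the retinoid X receptors (RXRi) at 5 µM, all-trans retinoic acid (atRA) at 10 µM, culture medium without vitamin A, or the vehicle DMSO. At day 1, after 24 hours, 2 libraries were made from DMSO organoids. The protocol gave Wnt3a-conditioned medium, the ROCK inhibitor Y-27632 and the GSK3B inhibitor CHIR99021 until day 3. Medium with EGF, Noggin and R-Spondin alone followed, with the treatment renewed at the switch. The day-1 libraries were taken before that switch. Where day 4 is set against day 1, time and medium therefore cannot be told apart. Micromolar is a reading of the unit "μm" in the labels, which also do not say whether the vitamin A-free culture held DMSO. Each treatment had 1 library, so its differences carry no test and are described by size.

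Ly6 proteins are small surface proteins that share a disulfide-rich fold, and most are tied to the membrane by a glycosylphosphatidylinositol (GPI) anchor. Ly6a encodes Sca-1, known from mouse blood stem cells and from injured or fetal-like gut epithelium. Ly6d is known from lymphoid progenitors and stratified epithelium, Ly6e is an interferon-inducible gene of many tissues, Ly6c1 marks endothelium and some leukocytes, and Ly6g is the neutrophil antigen of the Gr-1 antibody.

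All members lie on chromosome 15 within 397 kb (build GRCm38, GENCODE M21 gene models). Ly6d stands apart at chr15:74762056-74763620 on the minus strand. Ly6e follows at chr15:74955051-74959905 on the plus strand, then Ly6a at chr15:74994877-74998031 and Ly6c1 at chr15:75044018-75048830, both on the minus strand. Ly6g lies at chr15:75155240-75159126 on the plus strand. RefSeq promoter windows were matched for 2 of the 5 members, Ly6c1 and Ly6g, and are shown because RXR, the target of the antagonist, is a nuclear receptor that binds DNA. The runs below are written 5′ to 3′ on the strand of the gene (GRCm38.p6), up to 250 bases before a RefSeq start and trimmed to bases outside the annotated gene. Capitals mark AGGTCA, the core that many nuclear receptors recognise, on either strand.
Ly6c1, chr15:75048838-75049087, minus strand: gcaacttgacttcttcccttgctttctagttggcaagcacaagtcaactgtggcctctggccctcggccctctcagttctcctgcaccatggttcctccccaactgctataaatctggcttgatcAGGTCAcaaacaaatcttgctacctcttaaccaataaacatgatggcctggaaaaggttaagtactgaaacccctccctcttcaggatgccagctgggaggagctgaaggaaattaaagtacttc
Ly6g, chr15:75155011-75155239, plus strand: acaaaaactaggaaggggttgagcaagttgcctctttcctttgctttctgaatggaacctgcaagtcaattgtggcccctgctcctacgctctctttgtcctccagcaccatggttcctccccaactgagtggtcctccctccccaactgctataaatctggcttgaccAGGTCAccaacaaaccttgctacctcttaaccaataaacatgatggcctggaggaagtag

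The runs of 250 and 229 bases were closely alike where they aligned without gaps: 160 of 184 such bases (87.0%) were identical. Bases opposite gaps were not counted. Each held AGGTCA 1 time, beginning 125 bases before the RefSeq start of Ly6c1 and 81 bases before that of Ly6g, with TATAAA and CCAAT nearby in the same order. Of 32851 RefSeq windows of 250 bases, 14.0% held AGGTCA, 12.4% held TATAAA and 33.8% held CCAAT on either strand. Neither run held GGAATG (in 12.6% of windows) or TTCNNNGAA (in 7.02%). These matches describe letters, not binding sites.

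From 3468 to 5327 cells per library were kept after removal of likely doublets, with 47258161 to 62567817 UMIs in all. Cells held a median of 13365.5 UMIs with the antagonist and 9968 to 11784 UMIs in the other libraries. The median share of mitochondrial UMIs was 1.85% with the antagonist and 2.82% to 4.40% elsewhere. Any 2 libraries shared from 2 to 17 cell barcodes. Genes that mark blood, vessel and connective tissue cells were low, and their part in the Ly6 levels was not tested. In the antagonist library 14 immune genes summed to 0.889 CPM (UMIs of a gene per 1000000 UMIs of the library) and 10 neutrophil genes to 0.169 CPM, with 7 of these 10 at 0 UMIs. In the other libraries the same sums were 0.767 to 1.74 CPM and 0.0609 to 0.860 CPM. The 10 monocyte and macrophage genes summed to 12.2 CPM with the antagonist, 11.4 CPM of it Cd68, and to 2.24 to 6.09 CPM elsewhere. The 9 endothelial genes summed to 5.02 CPM with the antagonist and 2.49 to 4.41 CPM elsewhere, and the 9 fibroblast genes to 5.25 CPM and 3.02 to 29.5 CPM.

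Sharing of 3-prime sequence was low. None of the 90-base windows in the last 500 bases of Ly6a, Ly6d, Ly6e and Ly6g transcripts occurred in another gene, while 13.8% of those of Ly6c1 did, in Ly6a or Ly6c2. Ly6c1 is therefore the member whose counts are least certain. Levels are CPM over the summed cells of a library, and the exact 95% Poisson intervals in brackets hold counting error alone. A UMI stands for a molecule captured at its 3-prime end, so CPM does not grow with gene length, though capture may differ between genes.

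The RXR antagonist against the vehicle at day 4 asked what blocking these receptors does to growing organoids. All 5 members passed 2-fold upward. Of 8387 genes that reached 10 CPM in either library, 6.92% passed it upward and 8.38% downward. Here 2-fold is counted on log2 of CPM plus 5. Ly6a, Ly6c1, Ly6d and Ly6g reached 10 CPM through the antagonist library alone, so their direction was set by that minimum. Ly6e reached it in both.

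Ly6d had the highest level of the members in the antagonist library. It was at 1508 CPM (1497 to 1519) with the antagonist, while the vehicle held 0.340 CPM (0.198 to 0.544), a difference of 4439.9-fold (2773 to 7622). It was the gene of rank 80 by UMIs in the antagonist library. With retinoic acid it was at 1.77 CPM, in vitamin A-free medium at 1.14 CPM, and at day 1 at 4.73 and 6.56 CPM. The antagonist library thus stood above all others, and the counting intervals of retinoic acid (1.45 to 2.13) and vitamin A-free medium (0.859 to 1.48) overlapped.

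Ly6a showed a second high group. It was at 1086.5 CPM (1077 to 1096) with the antagonist, rank 126, while the day-4 vehicle held 2.54 CPM (2.12 to 3.02), a difference of 428-fold (359.7 to 514). It was at 3.72 CPM with retinoic acid and 9.08 CPM in vitamin A-free medium. The day-1 libraries held 130.5 and 137 CPM, so the antagonist level was 8.33 and 7.91 times that of the vehicle libraries at day 1. The order was antagonist, day 1, vitamin A-free medium, retinoic acid and vehicle.

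Ly6g and Ly6c1 were like Ly6d in their low level at day 1, and stayed under 10 CPM in every library but that of the antagonist. Ly6g was at 305 CPM (299.7 to 309.7) with the antagonist, while the day-4 vehicle held 1 UMI, so the ratio of 15246 has a counting interval of 2736 to 602219. It was at 0.264 CPM with retinoic acid and 0.508 CPM in vitamin A-free medium, whose intervals overlapped, and at 3.84 and 4.42 CPM at day 1, whose intervals overlapped too. Ly6c1 was at 93.1 CPM (90.4 to 95.9) with the antagonist, while the day-4 vehicle held 5 UMIs or 0.0999 CPM, a difference of 932-fold (399.2 to 2873). It had 0 UMIs with retinoic acid, with an exact 95% upper limit of 0.0609 CPM, 0.406 CPM in vitamin A-free medium, and 2.08 and 3.12 CPM at day 1.

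Ly6e was the member at 18.1 CPM or more in every culture. It was at 196 CPM (192 to 199.7) with the antagonist, while the vehicle held 42.4 CPM (40.6 to 44.2), a difference of 4.62-fold (4.40 to 4.84). The day-1 libraries were at 169 and 177 CPM, so the antagonist level was 1.16 and 1.11 times theirs. The day-1 libraries themselves differed 1.05-fold. Vitamin A-free medium gave 74.0 CPM and retinoic acid 18.1 CPM, the lowest level of the gene.

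**Figure D1:**
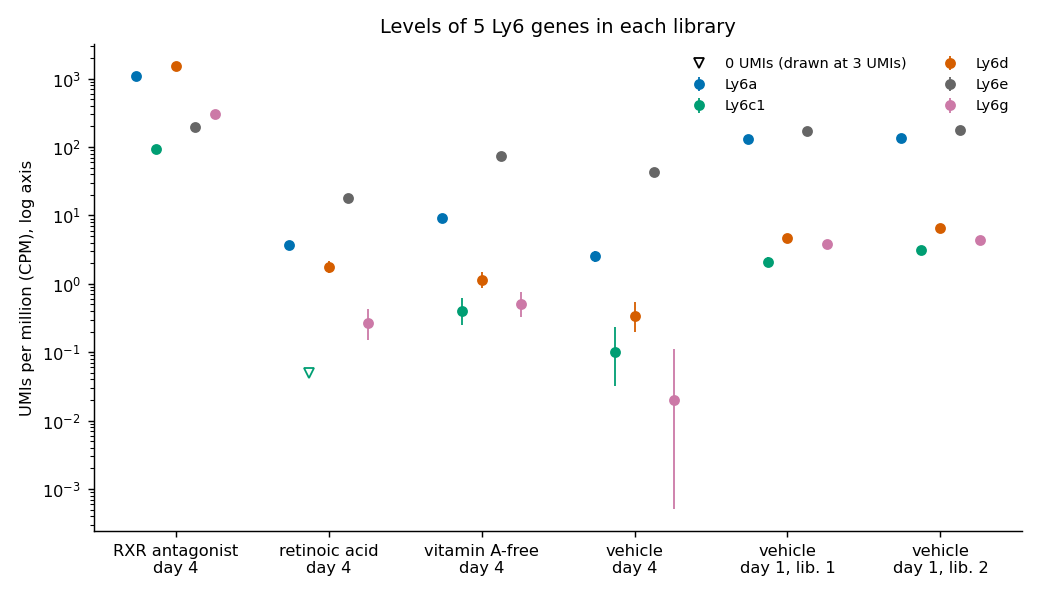
CPM of each member (log axis) in the 6 libraries, with points for levels and bars for exact 95% Poisson intervals; the open triangle is Ly6c1 at 0 UMIs with retinoic acid, drawn at 3 UMIs. All members were highest with the RXR antagonist, from 93.1 CPM for Ly6c1 to 1508 CPM for Ly6d, and Ly6a and Ly6e were above 100 CPM at day 1 as well.

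With the other day-4 treatments Ly6a, Ly6c1, Ly6d and Ly6g stayed under 10 CPM. With retinoic acid 1 member, Ly6e, reached 10 CPM and was at least 2-fold lower, against 2.8% of 7976 genes higher and 5.24% lower. Its log2 ratio was -1.03, or -0.76 relative to the median gene at -0.27, and it was -0.71 and -0.67 with TMM and DESeq2 scaling, so it lay under 2-fold there. In vitamin A-free medium Ly6e was 1.75-fold higher (1.65 to 1.84) than in the vehicle, and 0 members were at least 2-fold apart, against 0.183% of 8180 genes higher and 0.196% lower. Ly6a was under 10 CPM in both, 1.46-fold higher (1.17 to 1.83) with retinoic acid and 3.58-fold higher (2.93 to 4.39) in vitamin A-free medium. These intervals hold the counting error of UMIs alone. The 5 cells richest in Ly6a held 60% of its UMIs with retinoic acid, 37.6% in vitamin A-free medium and 38.6% in the vehicle. By share of cells Ly6a was lower with retinoic acid (0.759%) than in the vehicle (1.06%), and higher in vitamin A-free medium (2.10%).

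A few cells carried those low levels. With retinoic acid all 107 Ly6d UMIs lay in 5 cells, 47 of them in 1 cell, and all 16 Ly6g UMIs lay in 3 cells. Ly6a had UMIs in 39 cells with retinoic acid, 100 in vitamin A-free medium and 49 in the vehicle. In cells that were not thinned, Ly6d was found with another of Ly6a, Ly6c1 and Ly6g in 1 of 5 cells with retinoic acid, 12 of 15 in vitamin A-free medium and 2 of 6 in the vehicle. Ly6a was found with another of them in 3 of 39, 20 of 100 and 4 of 49 cells of the same libraries. None of the barcodes with Ly6a, Ly6c1, Ly6d or Ly6g UMIs in these 3 libraries occurred in the antagonist library.

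The vehicle at day 4 against day 1 asked how vehicle organoids change between 24 and 96 hours. The medium was switched at day 3, between these times, so time and medium cannot be told apart. All 5 members fell by day 4 in edgeR's quasi-likelihood test with Benjamini-Hochberg adjustment, against 17.3% of 17592 genes higher and 16.9% lower. The 1 day-4 library is assumed to vary like the 2 day-1 libraries, and separate cultures are not stated, so the p-values measure only the spread between these libraries. Ly6a was at 2.54 CPM at day 4, against 130.5 and 137 CPM at day 1, a log2 change of -5.54 ± 0.21 (SE, adjusted p = 0.000374). Ly6e was at 42.4 CPM at day 4, against 169 and 177 CPM at day 1, a log2 change of -1.85 ± 0.16 (SE, adjusted p = 0.00162). In both genes the day-4 level lay far outside the gap between the day-1 libraries.

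The remaining members were low at both times. Ly6d was at 0.340 CPM at day 4 against 4.73 and 6.56 CPM at day 1, a log2 change of -3.87 ± 0.37 (SE, adjusted p = 0.00211). Ly6c1 was at 0.0999 CPM at day 4 against 2.08 and 3.12 CPM at day 1, a log2 change of -4.49 ± 0.52 (SE, adjusted p = 0.00304). Ly6g had 1 UMI at day 4 against 240 and 262 UMIs at day 1 (edgeR adjusted p = 0.00103), 206-fold lower by CPM (counting interval 36.8 to 8157). By size, with 10 CPM as the minimum, Ly6a and Ly6e were measured and both were at least 2-fold lower, against 6.25% of 8619 genes higher and 8.23% lower. Ly6a passed the minimum through the day-1 libraries alone, which fixed its direction. The median log2 difference of those genes was -0.18.

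Shares of cells were compared with each cell thinned to 5000 UMIs, which left out 182 to 603 shallower cells per library. Ly6a was found in 63.7% of antagonist cells (exact binomial 95% interval 62.0 to 65.4), against 0.753% of day-4 vehicle cells (0.515 to 1.06). At day 1 it was in 29.4% and 26.5% of cells. Without thinning the shares were 72.2% with the antagonist, 1.06% in the day-4 vehicle, and 41.6% and 36.6% at day 1. Cells with Ly6a held 20.5 UMIs on average with the antagonist, and 3.68 and 4.39 UMIs at day 1. The signal per cell was therefore lower at day 1. The tenth of cells richest in Ly6a held 61.1% and 69.5% of its UMIs at day 1, and 47.3% with the antagonist. Such a share also rises when counts per cell are low, so it cannot compare evenness between these libraries.

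Ly6d was found in 45.9% of antagonist cells and 0.0941% of vehicle cells at day 4, and in 1.76% and 2.30% of day-1 cells. Ly6g was in 27.2% of antagonist cells and 0 of 4252 thinned vehicle cells, and in 1.64% and 1.56% of day-1 cells. Ly6c1 was in 18.2% of antagonist cells and 0.0235% of vehicle cells, and in 0.872% and 1.41% of day-1 cells. Ly6e was in 53.1% of antagonist cells and 14.4% of vehicle cells, and in 51.2% and 49.9% of day-1 cells. So Ly6e was at nearly the same frequency in antagonist and day-1 cells, while the other members were in fewer cells at day 1. Whether the low day-1 counts hold background was not tested, and the day-1 clusters highest in Ly6d are given below. In the day-1 goblet and Paneth cluster Ly6d was in 2.35% of 85 thinned cells of library 1 (exact interval 0.286 to 8.24, median depth 5465 UMIs). In library 2 it was in 0 of 212 (up to 1.72%, median depth 6767 UMIs). The 149 and 388 enteroendocrine-like cells held 0 Ly6d UMIs, at median depths of only 2457 and 3537 UMIs.

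**Figure D2:**
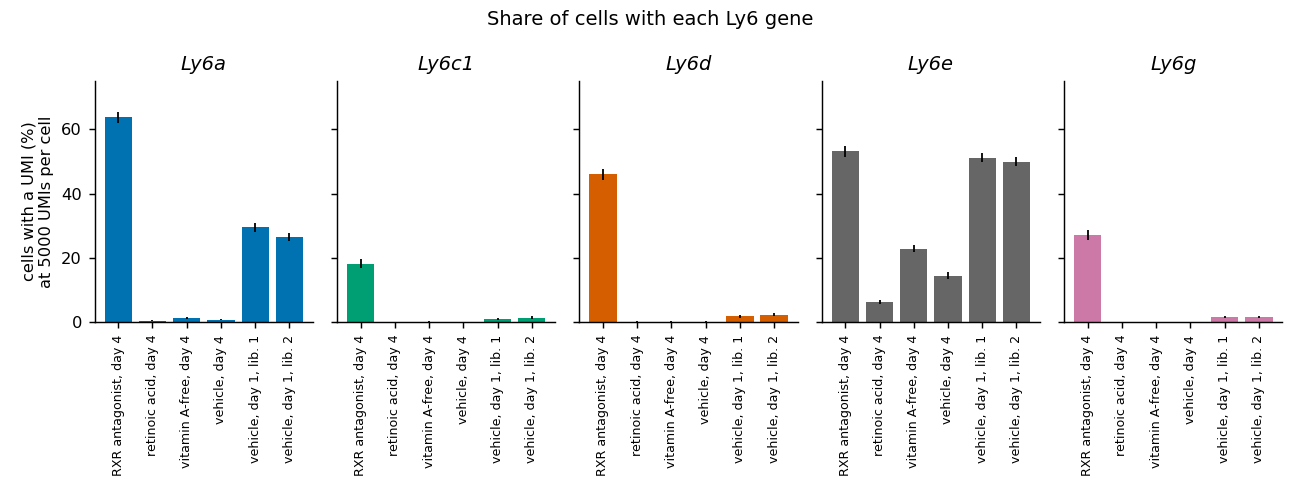
Share of cells with at least 1 UMI of each member in the 6 libraries, all cells thinned to 5000 UMIs; bars are percentages and lines are exact 95% binomial intervals. Ly6a and Ly6e were frequent with the antagonist (63.7% and 53.1%) and at day 1, while Ly6c1, Ly6d and Ly6g were frequent with the antagonist alone (18.2%, 45.9% and 27.2%) and at most 2.30% of cells elsewhere.

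Within the antagonist library the members were unevenly distributed. The tenth of cells richest in each gene held 78.4% of the Ly6g UMIs, 76.4% of Ly6c1, 64.7% of Ly6d, 47.3% of Ly6a and 35.6% of Ly6e. The most Ly6d UMIs in a cell was 1058, against a median of 1. Of the thinned cells 14.5% had no member, and 5.34% had all 5. Leaving out Ly6e, 28.3% had none of the other 4, 22.8% had 1, 22.9% had 2, 17.5% had 3 and 8.46% had all 4.

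Levels were then set out by cluster, with cells of all libraries clustered together without any Ly6 or uPAR superfamily gene. The antagonist cells fell mainly into cluster 1 (1707 cells) and cluster 0 (1508 cells). Cluster 1 was regenerative-like: it was led by Sprr2f, Wfdc2, Mal and Sprr1a, with Il1rn and Anxa10 in its 10 top genes, and all 8 regenerative markers were at least 2-fold up. Cluster 0 was led by Nupr1, Dmbt1 and Paqr5 and was left unnamed. Both consisted of antagonist cells except 5 and 3 cells, so a cluster and that library cannot be told apart.

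Ly6d separated these clusters most. It was at 2656 CPM in cluster 1 and 153 CPM in cluster 0, and in 74.4% and 18.1% of their thinned cells. Ly6c1 was at 160.5 and 12.9 CPM in clusters 1 and 0, Ly6a at 1731 and 321 CPM, and Ly6g at 495 and 93.3 CPM. Ly6e was at 191 and 188 CPM, nearly the same level in both. Cluster 1 held 49.2% of the cells and 93.1% of the Ly6d, 91.0% of the Ly6c1, 85.8% of the Ly6g, 84.2% of the Ly6a and 51.5% of the Ly6e UMIs. Median UMIs per cell were 14332 in cluster 1 and 12897 in cluster 0.

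In cluster 2, which held 125 antagonist cells and was led by goblet and Paneth cell genes, the members parted. Ly6a was at 668 CPM there, above cluster 0, and Ly6e at 331 CPM, above both. Ly6d was at 54.9 CPM, Ly6c1 at 7.06 CPM (9 UMIs) and Ly6g at 3.14 CPM (4 UMIs), at a median depth of 10173 UMIs. The ratio of Ly6d to Ly6a UMIs was 0.0823 in this cluster, 0.477 in cluster 0 and 1.53 in cluster 1. Ly6d and Ly6a were therefore in no fixed proportion across the clusters of this library. The ratio of Ly6g to Ly6a UMIs was nearly the same in clusters 0 and 1, at 0.291 and 0.286. It was 0.0047 in cluster 2, from 4 Ly6g UMIs. Of thinned cells in this cluster 37.5% had Ly6a, 15.4% Ly6d, 2.88% Ly6g and 1.92% Ly6c1. In the 33 enteroendocrine-like cells there were 40 Ly6a, 4 Ly6d and 90 Ly6e UMIs.

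**Figure D3:**
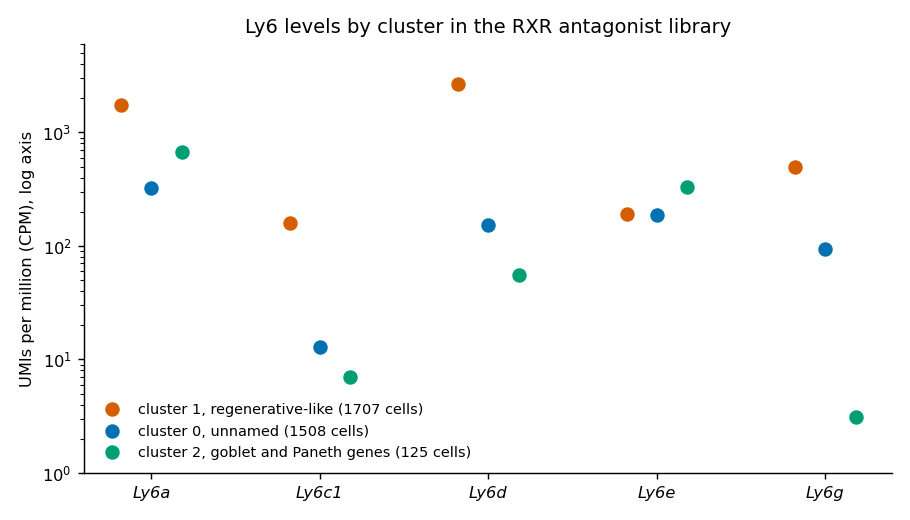
CPM (log axis) of each member in the 3 largest clusters of the antagonist library, with a point for each cluster. Ly6d was at 2656 CPM in cluster 1 and 54.9 CPM in the cluster with goblet and Paneth genes, while Ly6e was between 188 and 331 CPM in all 3.

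Cell by cell, Ly6a, Ly6c1, Ly6d and Ly6g were seen together more often than their separate shares would give, and the pairs with Ly6e lay nearer that product. Of the 10 pairs of members in the antagonist library, 6 were found together in 1.34 to 2.12 times the product of their shares, all of them among Ly6a, Ly6c1, Ly6d and Ly6g, and the 4 pairs with Ly6e in 0.994 to 1.22 times. Ly6c1 and Ly6g occurred together in 10.5% of cells, 2.12 times the product, with a Spearman correlation of 0.35 over 3240 thinned cells. Ly6a and Ly6d occurred together in 39.3% of cells, 1.34 times the product, with a correlation of 0.51. Of the cells with Ly6c1, 95.9% also had Ly6a, while 27.4% of cells with Ly6a had Ly6c1. The pairs of Ly6e with Ly6d and with Ly6g stood at 0.994 and 1.01 times the product.

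Taking the clusters into account lowered the ratios of the pairs without Ly6e. When expected shares were summed over clusters, Ly6c1 with Ly6g stood at 1.41, Ly6c1 with Ly6e at 1.26, and Ly6a with Ly6d at 1.08 times the expected share. The other 7 pairs were at 1.17 or less. Ly6a was in 88.0% of the thinned cells of cluster 1, so pairs with it had little room to exceed the product there. Inside cluster 0 the pairs without Ly6e stood at 1.64 to 4.05 times the product, and inside cluster 1 at 1.03 to 1.35 times. The sum over clusters therefore cannot tell how much of the joint occurrence followed the clusters. Inside cluster 1 the correlations of Ly6a were 0.45 with Ly6c1, 0.32 with Ly6g, 0.31 with Ly6e and 0.15 with Ly6d. Cells share their library and depth was fixed at 5000 UMIs, so these values describe this library.

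The share of cells with each other member went up with the Ly6a count of the cell. Ly6c1 was in 2.04% of cells without Ly6a, 8.51% with 1 to 4 Ly6a UMIs, 38.0% with 5 to 19 and 69.1% with 20 or more. Ly6g was in 5.44%, 22.4%, 50.5% and 68.4% of the same classes. Ly6d was in 18.2%, 44.9%, 74.3% and 78.9%, so it was already frequent where Ly6a was moderate. Ly6e was in 45.9%, 49.8%, 61.3% and 73.7%.

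**Figure D4:**
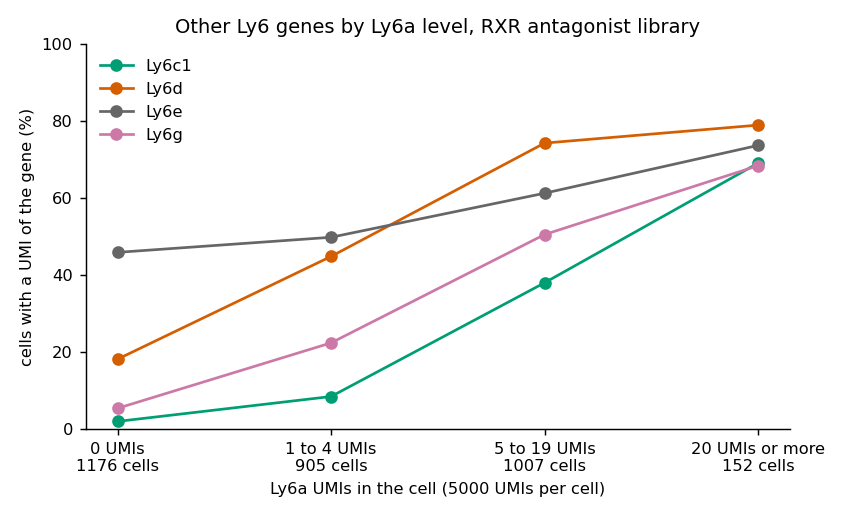
Share of antagonist cells with a UMI of each other member by the Ly6a UMIs of the cell, at 5000 UMIs per cell; points are percentages of the cells counted under each class. Ly6c1 was in 69.1% of cells with 20 or more Ly6a UMIs and 2.04% of cells without Ly6a, and Ly6e in 73.7% and 45.9%.

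The 8 regenerative markers, which include annexins, clusterin and mesothelin, followed the same members. These markers also gave cluster 1 its name, and they were chosen with earlier results of these data known. Antagonist cells with Ly6d held a mean of 39.5 marker UMIs, against 12.2 in cells without it (Spearman 0.66), and cells with Ly6a held 33.7 against 8.97 (0.68). For Ly6c1 the means were 45.7 in cells with it and 20.1 in cells without, and for Ly6g 38.1 and 19.7. For Ly6e the mean was 24.5 in cells with it, and the correlation was 0.01, so cells with and without Ly6e held nearly the same number. Goblet markers ran the other way for Ly6d: cells with it held 8.86 of their UMIs against 41.4 in cells without (Spearman -0.35). Cells with Ly6e held 34.0 against 17.8, though the correlation was only 0.08. The cells and the depth of 5000 UMIs are shared by all of these values.

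At day 1 the members also overlapped, at low level. Without thinning, of 117 cells with Ly6c1 in library 1, 101 had another of Ly6a, Ly6d and Ly6g, and in library 2 the count was 118 of 151. Ly6a alone was in 41.6% and 36.6% of all cells of these libraries. Ly6a and Ly6d were together in 1.14% and 1.30% of cells of the day-1 libraries, 2.20 and 2.13 times the product. Ly6a was broad over the clusters of both libraries, and highest in cluster 22, led by Acta1, Krt23 and Areg, at 420.4 and 215 CPM. Ly6d was highest in clusters 22 and 19, at 15.9 and 11.3 CPM in library 1 and 10.5 and 12.5 CPM in library 2.

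Ly6e differed between clusters in the maturing organoids. With retinoic acid it was at 146 CPM in the cluster with goblet and Paneth genes, 109.6 and 92.8 CPM in the stem-like clusters 7 and 8, and 1.38 CPM in the enterocyte-like cluster 10, which held 56.6% of the cells. In vitamin A-free medium it was at 275 CPM in the cluster with goblet and Paneth genes, 365 CPM in enteroendocrine-like cells, 123 and 130.2 CPM in clusters 7 and 8, and 6.05 CPM in the enterocyte-like cluster 18. The day-4 vehicle gave 225, 282, 94.6, 108 and 5.12 CPM in the same clusters, which was the same order. At day 1 too Ly6e was high in the cluster with goblet and Paneth genes, at 391 and 538 CPM, the highest among clusters of at least 50 cells in each library. Cluster 10 and the vehicle's enterocyte-like cells are different clusters. Clusters 7 and 8 made up 4.26% and 4.95% of retinoic acid cells. They made up 16.5% and 19.7% of vitamin A-free cells, and 12.3% and 11.2% of day-4 vehicle cells. The antagonist library, with Ly6e at 196 CPM, held only 5 and 3 cells in these clusters. Day-1 library 1, at 169 CPM, held 0 and 1, and library 2, at 177 CPM, held 1 and 1. The part of stem-like cells in the Ly6e level was not tested.

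The genes most alike to the members were named by correlation. Across antagonist cells, Ly6a was closest to S100a6, Krt7, Anxa2, Lgals3 and S100a11 (Spearman 0.64 to 0.56 among 7451 genes). Ly6d was closest to Lgals3, Anxa2, S100a6, Krt8 and S100a11 (0.66 to 0.57), Ly6c1 to Ly6a, Msln, Krt7, S100a6 and Ly6g (0.49 to 0.35), and Ly6g to Ly6a, Krt8, Anxa2, Actb and Krt19 (0.48 to 0.39). Most of these encode keratins, calcium-binding S100 proteins or annexins. For Ly6e the closest was Ptma, at 0.19. In the day-4 vehicle Ly6e was closest to Slc12a2, Cd24a, Ptma, Ccnd2 and H2afz (0.38 to 0.34), and in vitamin A-free cells to Slc12a2, Ptma, Krt18, Stmn1 and Cd24a (0.39 to 0.35). At day 1 Ly6a was closest to Krt18 in both libraries (0.32 and 0.31), and to Krt7 and Anxa3 as well.

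Over the 6 libraries, the likeness was measured as the Pearson correlation of log2 CPM plus 5, which rests largely on the antagonist library. Ly6c1, Ly6d and Ly6g were correlated with each other at 0.998 or more, with Ly6a at 0.827 to 0.851, and with Ly6e at 0.532 to 0.575. Beside the members, Ly6a was closest to Samd5, Med15, Anxa3, Bmp8b and Wwc2 among 8804 genes, with correlations above 0.997, and Ly6c1 to Myof, Tspan6, Cav2, Trex2 and the superfamily gene Lynx1. Ly6d was closest to Mcpt2 and Cr1l, and Ly6e to Phc3, Mprip and Ro60. As 489 genes correlated with Ly6a above 0.9, such likeness is common in these libraries.

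Other genes of the Ly6 and uPAR superfamily gave the wider picture. Of 49 listed, 12 reached 10 CPM in the antagonist or vehicle library. Of these, 10 passed 2-fold upward, the 5 members included, and 1 downward, against 6.92% of 8387 genes upward and 8.38% downward. Their median log2 ratio was 3.29, and that of all genes 0.01. For 9 of the 12 the level reached 10 CPM in the antagonist library alone, which fixed their direction. Plaur, the urokinase receptor, was at 291 against 7.85 CPM, and Ly6m at 69.4 CPM against 3 UMIs. Psca was at 28.0 against 0.0999 CPM, Lynx1 at 12.3 against 0.220 CPM, and Gml2 at 10.2 against 0.240 CPM. Lypd8, a GPI-anchored protein of colon epithelium that holds flagellated bacteria off the surface in mouse, was at 1414 CPM with the antagonist and 1526 CPM in vitamin A-free medium, both lower than the 3537 CPM of the vehicle, while retinoic acid gave 5756 CPM, 1.63-fold higher than the vehicle. Ly6g2 was at 16.2 CPM with the antagonist against 33.6 CPM in the vehicle.

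**Figure D5:**
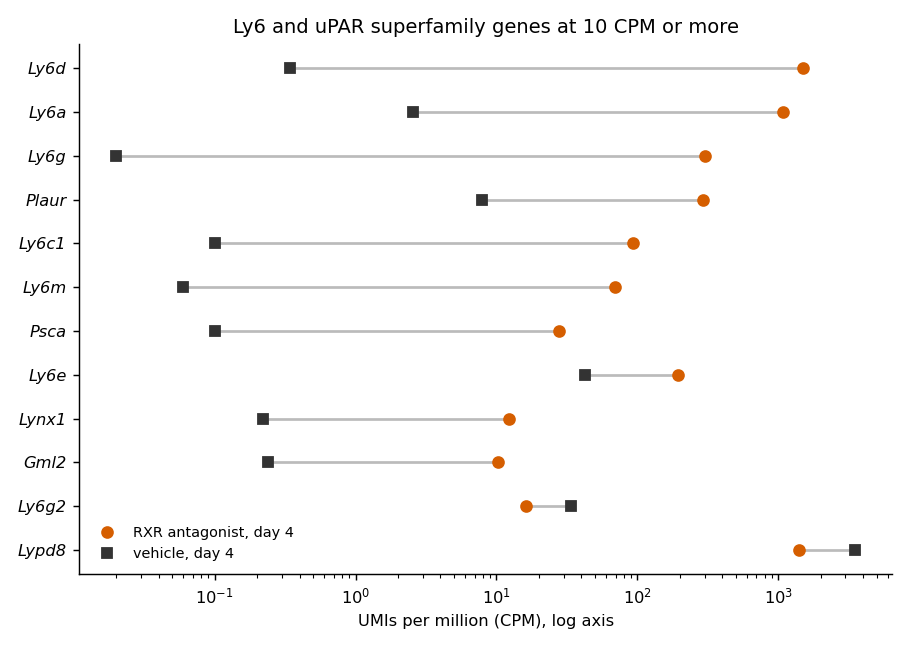
CPM (log axis) in the antagonist library (circles) and the day-4 vehicle (squares) for the 12 Ly6 and uPAR superfamily genes at 10 CPM or more in either. Lypd8 and Ly6g2 were lower with the antagonist and the other 10 were higher, with Ly6d at 1508 against 0.340 CPM.

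Neighbours in the gene cluster were at very different levels with the antagonist. Of 33 locus genes listed, members included, 11 reached 10 CPM, with 9 past 2-fold upward and 0 downward and a median log2 ratio of 2.69. The shares over 8387 genes were 6.92% upward and 8.38% downward. For 8 of the 11, 4 of the members among them, the level reached 10 CPM in the antagonist library alone, which fixed their direction. Between Ly6d and Ly6e, Gml was at 9.82 CPM with the antagonist against 0.460 CPM in the vehicle, and Ly6k had 92 UMIs against 0, at least 32.5-fold higher (3 UMIs as the floor of the vehicle library). Ly6i, between Ly6e and Ly6a, had 8 UMIs against 0, and Ly6c2, between Ly6c1 and Ly6g, 3 UMIs against 0. Cyp11b1 and Cyp11b2 had 0 UMIs in both libraries. These genes under 10 CPM are named for their position, a choice made after their values were seen.

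From day 1 to day 4 of vehicle culture, edgeR tested 28 of the 49 superfamily genes and called 3 higher and 10 lower at day 4 by adjusted p, where 17.3% of all genes tested were higher and 16.9% lower. Their median log2 change was -1.65, against -0.03 for all genes tested. Beside the members, Psca (-6.87), Plaur (-2.62), Ly6m, Gml2 and 1 gene under 10 CPM were lower, and Lypd8 (2.14), Ly6g2 (1.11) and 1 gene under 10 CPM were higher, all given as log2 changes.

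Lists of related biology were counted too. They were chosen with earlier results of these data known, so their counts are no independent support. The shares of all genes were 6.92% upward and 8.38% downward with the antagonist. In edgeR they were 17.3% higher and 16.9% lower at day 4. Of 27 regenerative and fetal-like genes other than Ly6 found in the files, 21 reached 10 CPM in the antagonist or vehicle library, and 19 of them passed 2-fold upward and 0 downward, with a median log2 ratio of 4.62. With the antagonist 21 of these genes were at 10 CPM and in the vehicle 11, so for 10 of them the minimum fixed the direction. Anxa3, an annexin, was at 821 CPM with the antagonist against 7.37 CPM in the vehicle, and S100a6 at 3082 against 53.4 CPM. The same list had 21 of 25 tested genes lower at day 4 than at day 1 and 1 higher, Ccn1. Of 28 genes that build and attach the GPI anchor, 24 reached 10 CPM, with a median log2 ratio of -0.02. Among them 1 passed 2-fold upward and 0 downward: Pgap1, which remodels the anchor after attachment, was at 298 CPM with the antagonist against 83.0 CPM in the vehicle. Of 38 interferon-response genes, counted because interferon induces Ly6a and Ly6e in mouse cells, 11 reached 10 CPM, with 3 past 2-fold upward and 2 downward and a median log2 ratio of -0.47. Oasl1 was at 169 CPM with the antagonist against 14.2 CPM in the vehicle, and Ifitm3 was at 2.26 against 62.5 CPM. Between day 4 and day 1 edgeR called 8 of 29 interferon genes higher at day 4 and 2 lower, Bst2 and Ifit2.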

How the data were processed

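The deposited values are raw UMI counts for each gene in each cell. The submitters' processing notes name Cell Ranger 3.1.0, bcl2fastq 2.17 and build GRCm38, with no role given. Members and gene lists were chosen with earlier results of these data known.

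No barcode fell below 500 genes or 1000 UMIs or above 20% mitochondrial UMIs. The highest Scrublet scores were removed at 0.8% per 1000 barcodes (scanpy 1.11.5). Counts were summed per library and scaled to CPM. Folds are CPM ratios with exact conditional intervals, 2-fold calls use log2 of CPM plus 5 and 10 CPM in at least 1 library, and cells were thinned to 5000 UMIs for shares. Cells were clustered on 2000 variable genes, Ly6 and uPAR genes left out, at resolution 1. Day 4 against day 1 was tested with edgeR 4.0.16 (TMM, quasi-likelihood, adjusted p under 0.05), and DESeq2 1.42.0 was an alternative. The day-1 libraries differed by a mean chi-square of 115 per gene over 8028 genes, more than sampling noise, and were counted as 2.

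Named genes were the members, superfamily genes at 10 CPM, up to 4 genes per other list with the largest antagonist ratio, and the genes most alike to each member; neighbours in the locus under 10 CPM were added after their values were seen. No columns were left out. Alternatives are given in the closing section.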

Additional observations from a re-analysis of the deposited data

How the results depend on the processing

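No paired analysis was possible because each treatment had 1 library and the labels do not say which mouse a library came from. The antagonist count of 5 members, the vitamin A-free count of 0 and the day-4 against day-1 count of 2 members at least 2-fold apart kept their value under TMM and DESeq2 size factors, without doublet removal, with equal weight per cell and with other minimum levels. Leaving out either day-1 library gave 2 to 2. The retinoic acid count was 1 member, and it was 0 with TMM factors, 0 with DESeq2 size factors and 0 with a minimum of 50 CPM. The count of genes called between day 4 and day 1 was 6019, 6063 with DESeq2 size factors in edgeR, 5910 without doublet removal and 5035 with DESeq2, and it was 3971 without a filter on low counts, a test of more genes (28578); all 5 members stayed lower under each of these. Without a day-1 library that test has no residual degrees of freedom and was not run. Of 30 member and library pairs, 12 had a UMI in at least 5% of cells, 12 without thinning, 11 at 3000 UMIs and 12 without doublet removal. The number of member pairs seen together fell to 2 when expected shares were summed over clusters, against 6 at the level of the library and 5 or 6 under the other settings. The share of antagonist Ly6d UMIs in clusters with at least 6 of 8 regenerative markers up was 95.6%, 95.6% at resolution 2 and 99.9% at resolution 0.5, where these clusters held most antagonist cells. Single-library levels, with 1 library per treatment, and the few cells with Ly6c1, Ly6d and Ly6g UMIs outside the antagonist library limit what can be said there.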
